A study of Mus musculus with 50 samples.

Results

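The 6 genes described here, Esr1, Pgr, Prlr, Nr3c1, Greb1 and Ghr, were taken by their names from the 37701 genes measured in 50 mouse mammary gland (MG) tumors. Of these, 5 code for hormone receptors. Esr1 codes for estrogen receptor alpha, Pgr for the progesterone receptor, Nr3c1 for the glucocorticoid receptor, Prlr for the prolactin receptor and Ghr for the growth hormone receptor. Greb1 is not a receptor gene but a target gene of the estrogen receptor, whose protein binds to that receptor.

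The tumors came from female p53R270H/+WAPCre mice, in which the whey acidic protein (Wap) promoter drives Cre in mammary epithelium and Cre switches on a mutant p53 allele. All groups carried these alleles, vehicle included. Injections under the skin began at 8 weeks of age and were repeated every other day with vehicle, insulin, glargine, X10 or IGF1 until a tumor was found, and the mice were killed at a tumor size of 1 cm3, 24 h after the last injection. Both glargine and X10 are insulin analogues with an altered sequence. IGF1 stands for insulin-like growth factor 1. There were 10 tumors per group, chosen by the authors as EMT-like tumors (epithelial to mesenchymal transition, the loss of epithelial features) with a latency near the median of their group, so they stand for those tumors and not for all tumors of a treatment. The tumors titled untreated are called vehicle here, since no other control group is described. Tumors are named by their group and the number in their label, as in X10_116.

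Estrogen and progesterone act on the mammary duct through nuclear receptors that bind DNA after they have bound the hormone. In the normal gland, cells with the estrogen receptor switch on Pgr and Greb1 and send growth signals such as Areg, Wnt4 and Tnfsf11 to their neighbours. Prolactin and growth hormone act through membrane receptors that work with the kinase Jak2 and the factors Stat5a and Stat5b, and in secretory cells the prolactin receptor leads to the milk protein genes together with the factor Elf5. The glucocorticoid receptor rests in the cytoplasm bound to Hsp90 and to proteins such as Fkbp4 and Fkbp5, and it is found in nearly all cell types.

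The values are RPKM, reads per kilobase of gene length and per M reads of the library. Library sizes, recovered from the steps between RPKM values, ran from 26.6 to 51.9 M reads (median 40.9 M). The tumors held epithelial markers at varied levels: Krt8 was between 2.39 and 1616 RPKM and Epcam between 0.529 and 302. Fibroblast and leukocyte markers were found in every tumor, with Col1a1 at 1341 RPKM or more and Laptm5 at 277 or more. Wap itself was listed at 0 in 17 tumors. In bulk tumor RNA, fewer cells of a type and less RNA per cell cannot be told apart. In vehicle_174, glargine_47 and IGF1_160, genes with long transcripts were low relative to genes with short ones. Their index of this, described below, was under -1 on the log2 scale. The gene pairs that passed the threshold are given with and without these tumors. So are the relations of Nr3c1, Esr1 and Ghr with the index and with neighbouring genes, and those of Nr3c1 and Esr1 with their chromosomes. Relations with cell type markers, the lists of most alike genes and their chromosome counts are not given without all of these tumors.

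Of the 6 genes, Nr3c1 and Ghr were expressed at the highest levels and Pgr was nearly absent. Over the 50 tumors the median was 46.1 RPKM for Nr3c1, 34.0 for Ghr, 2.75 for Esr1, 1.54 for Greb1, 1.53 for Prlr and 0.0650 for Pgr. The ranges of Nr3c1 (18.4 to 86.0 RPKM) and Ghr (4.74 to 117) overlapped, as did those of Esr1 (0.610 to 10.0), Greb1 (0.375 to 38.0) and Prlr (0.129 to 16.4). The 2 sets overlapped as well, since Ghr fell to 4.74 RPKM and Greb1 reached 38.0. The order given is that of the medians, and differences in level between genes were not tested.

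The order of Greb1 and Prlr also depended on the gene length behind the RPKM. The length that the values imply was 854 bases for Greb1 and 1243.5 for Prlr, which is the median length of the annotated transcripts of each gene (GENCODE M21), whereas the longest transcripts have 8058 and 9900 bases. The longest transcript was 9.44 times the length used for Greb1, 7.96 times for Prlr, 3.5 times for Ghr, 3.01 times for Nr3c1, 2.37 times for Esr1 and 2.25 times for Pgr. As recovered reads per kilobase of the longest transcript and per M reads, the medians were 15.3 for Nr3c1, 9.72 for Ghr, 1.16 for Esr1, 0.193 for Prlr, 0.164 for Greb1 and 0.0291 for Pgr. On this scale Prlr stood above Greb1, and the other places did not change.

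**Figure D1:**
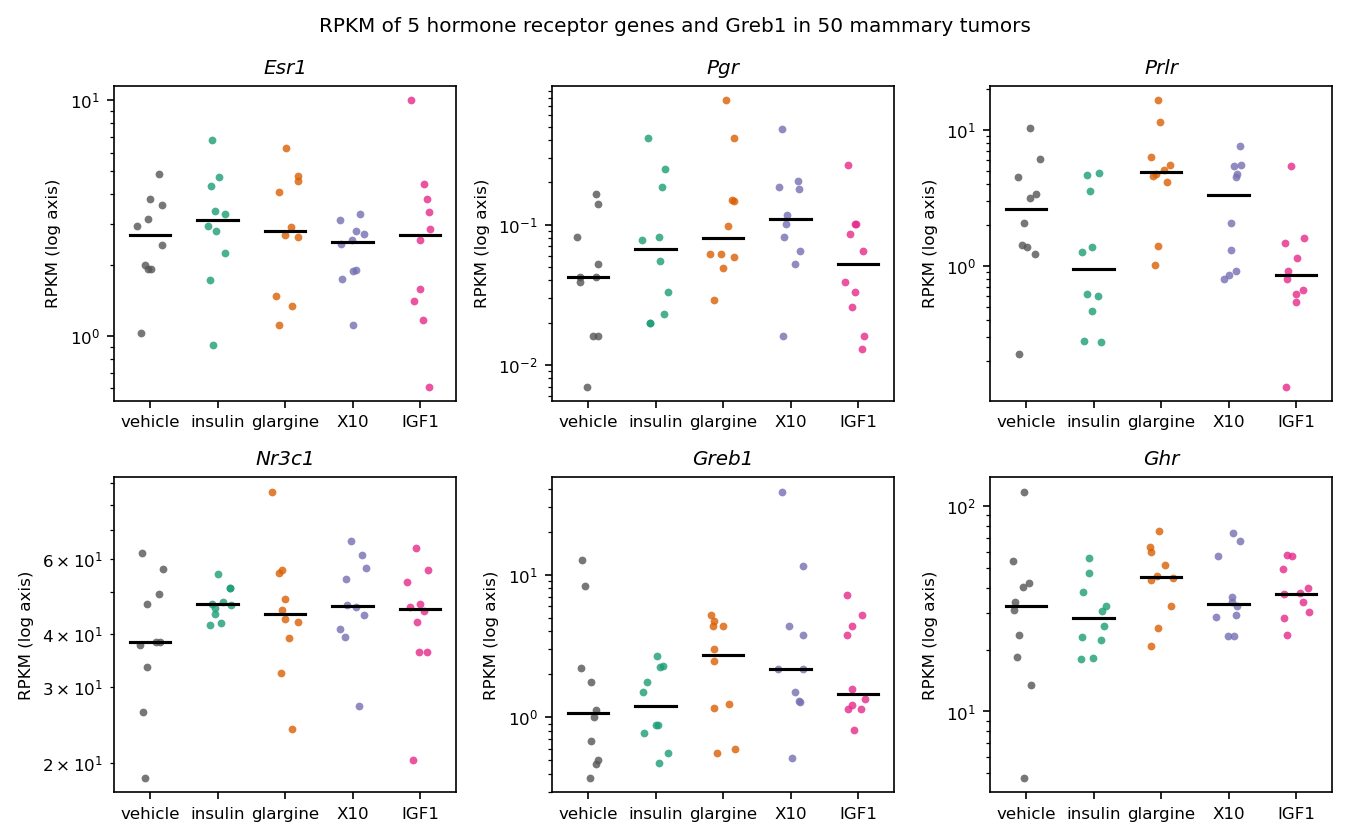
RPKM of each gene (log axis) in the 10 tumors of each treatment group, with a black line at the group median. The groups overlap for every gene, and the Prlr medians run from 0.853 RPKM in the IGF1 group to 4.85 in the glargine group.

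Esr1 (ENSMUSG00000019768, GRCm38 chr10:4611593-5005614, plus strand) was expressed in all 50 tumors at similar levels in each group. The vehicle tumors were between 1.03 and 4.88 RPKM with a median of 2.68, and the insulin tumors between 0.920 and 6.82 with a median of 3.12. The glargine tumors were between 1.12 and 6.28 RPKM with a median of 2.80, and the X10 tumors between 1.12 and 3.28 with a median of 2.51. The IGF1 tumors covered the whole range, from 0.610 RPKM in IGF1_160 to 10.0 in IGF1_158, with a median of 2.70. All 5 groups overlapped. Only 3.18% of the variance of Esr1 over tumors lay between groups, where the median over the 16733 tested genes was 9.29%.

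Pgr (ENSMUSG00000031870, chr9:8899833-8968611, plus strand) had between 1 and 110 reads per tumor, with a median of 8 reads. The vehicle tumors were between 0.00700 and 0.166 RPKM with a median of 0.0420, and those in the insulin group between 0.0200 and 0.411 with a median of 0.0665. The glargine tumors ran from 0.0290 to 0.769 with a median of 0.0800, those in the X10 group between 0.0160 and 0.482 with a median of 0.109, and in the IGF1 group between 0.0130 and 0.264 with a median of 0.0520. The groups overlapped. The highest tumor was glargine_64 with 110 reads, followed by X10_116 with 57, glargine_70 with 48 (0.414 RPKM) and insulin_21 with 50 (0.411 RPKM). At a median of 8 reads, small differences in Pgr were not detectable.

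Greb1 (ENSMUSG00000036523, chr12:16670615-16800886, minus strand) varied far more than its receptor. Its standard deviation over tumors was 1.14 on the log2 scale, higher than that of 94.8% of the tested genes, and that of Esr1 was 0.65. The vehicle tumors were between 0.375 and 12.6 RPKM with a median of 1.07, the insulin tumors between 0.480 and 2.68 with a median of 1.20, and the glargine tumors between 0.562 and 5.20 with a median of 2.74. The X10 tumors were between 0.515 and 38.0 RPKM with a median of 2.17, and the IGF1 tumors between 0.820 and 7.25 with a median of 1.45. The highest tumor, X10_95, had 38.0 RPKM from 1637 reads, and the next was vehicle_194 with 12.6 RPKM. X10_95 was at the same time the lowest of its group for Esr1, with 1.12 RPKM.

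Greb1 and Pgr are the members known best as estrogen receptor targets, so the 250 bases before their starts are shown (RefSeq, GRCm38.p6, 5′ to 3′ on the strand of the gene). Capitals mark GGTCA or its reverse complement TGACC, the core that the estrogen receptor binds as an inverted repeat. The Greb1 sequence lies at chr12:16800887-16801136 (minus strand) and the Pgr sequence at chr9:8899583-8899832 (plus strand).
Greb1: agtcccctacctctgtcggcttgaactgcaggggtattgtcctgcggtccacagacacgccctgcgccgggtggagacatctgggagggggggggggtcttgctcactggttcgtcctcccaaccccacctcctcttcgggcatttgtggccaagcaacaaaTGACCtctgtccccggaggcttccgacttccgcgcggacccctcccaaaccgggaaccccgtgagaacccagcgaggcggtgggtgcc
Pgr: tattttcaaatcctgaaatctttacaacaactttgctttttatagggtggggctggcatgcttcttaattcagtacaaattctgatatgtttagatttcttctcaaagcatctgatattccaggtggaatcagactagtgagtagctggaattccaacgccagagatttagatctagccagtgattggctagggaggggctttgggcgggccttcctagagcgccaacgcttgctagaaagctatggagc
The complete element, GGTCA and TGACC with 3 bases between them, was found in 0 of the 10 windows of 300 bases around the starts of Esr1, Pgr, Prlr, Greb1 and Ghr, on either strand, and in 0.07% of 32851 promoter windows of that length. The core alone was found in 3 of the 10 windows, 1 of Esr1 and 2 of Greb1, and in 40.5% of all windows. The glucocorticoid element, AGAACA and TGTTCT with 3 bases between them, was found in 0 of the 10 windows and in 0.00913% of all windows. These counts describe the letters in these windows and say nothing of binding elsewhere.

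Prlr (ENSMUSG00000005268, chr15:10177238-10349180, plus strand) had the largest share of its variance between treatments of the 6 genes (given below). The vehicle tumors were between 0.225 and 10.2 RPKM with a median of 2.59, and the insulin tumors between 0.273 and 4.83 with a median of 0.941. The glargine tumors were between 1.01 and 16.4 RPKM with a median of 4.85, the X10 tumors between 0.796 and 7.58 with a median of 3.29, and the IGF1 tumors between 0.129 and 5.43 with a median of 0.853. The groups overlapped, although the glargine tumors were mostly high and the IGF1 tumors mostly low.

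Nr3c1 (ENSMUSG00000024431, chr18:39410545-39519421, minus strand) was the most even of the 6 on the log2 scale among those past the filter on low values, with a standard deviation of 0.41, near the median of 0.42 over the tested genes. The vehicle tumors were between 18.4 and 61.9 RPKM with a median of 38.3. The insulin tumors were the tightest set, between 41.9 and 55.2 RPKM with a median of 47.0. The glargine tumors were between 24.0 and 86.0 RPKM with a median of 44.4, the X10 tumors between 27.2 and 66.0 with a median of 46.6, and the IGF1 tumors between 20.3 and 63.6 with a median of 45.8. The lowest tumors were vehicle_174, IGF1_160 and glargine_47, the 3 tumors with low long transcripts.

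Ghr (ENSMUSG00000055737, chr15:3317760-3583492, minus strand) was between 4.74 and 117 RPKM in the vehicle tumors with a median of 32.5, which was the whole range of the study. The insulin tumors were between 18.1 and 56.0 RPKM with a median of 28.4, and the glargine tumors between 20.9 and 75.2 with a median of 45.2. The X10 tumors were between 23.3 and 74.2 RPKM with a median of 33.4, and the IGF1 tumors between 23.6 and 57.6 with a median of 37.4. The lowest tumor was vehicle_174 and the highest vehicle_197, and the other vehicle tumors were between 13.5 and 54.1 RPKM.

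The first question was whether chronic treatment with insulin or its analogues changed these genes. None of the 5 genes that passed the filter on low values (a mean of at least 0.5 RPKM) differed between any groups by limma on log2(RPKM + 0.5), at a threshold of 0.05 on p-values adjusted by Benjamini-Hochberg over 16733 genes. Fold changes on this scale are understated for genes with low values. The count was 0 of 5 against vehicle for insulin (0% of all tested genes called), glargine (0%), X10 (0.0657%) and IGF1 (0.00598%). It was 0 of 5 for glargine (0%), X10 (0.102%) and IGF1 (0.00598%) against insulin, for X10 (1.78%) and IGF1 (0%) against glargine and for IGF1 against X10 (0%). It was also 0 of 5 for the 20 X10 and IGF1 tumors against the 30 vehicle, insulin and glargine tumors (0.155%), which sets the ligands with a high affinity for the IGF1 receptor against the rest, and for any difference among the 5 groups (0.102%). Few genes of any kind were called in these comparisons. Groups are shared between the comparisons, which are therefore not independent.

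At an unadjusted p-value under 0.05, Prlr passed against vehicle in the IGF1 tumors (8.84% of all tested genes passed), and none of the 5 passed in the insulin (11.1%), glargine (6.23%) or X10 tumors (11%). Between ligands, Prlr passed in glargine against insulin (3.96%), IGF1 against glargine (6.98%) and IGF1 against X10 (11.7%), and Greb1 in X10 against insulin (11.3%). None of the 5 passed in IGF1 against insulin (7.3%), X10 against glargine (11.6%) or X10 and IGF1 against the rest (10.5%). In the test of any difference among the groups, Prlr alone passed (13.1%).

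In Prlr, the glargine tumors were 1.59 above the insulin tumors on the log2 scale (95% interval 0.69 to 2.49, p = 0.000889, adjusted p = 0.990 by limma). The IGF1 tumors were 1.79 below the glargine tumors (log2 fold change -1.79, interval -2.70 to -0.89, p = 0.000219, adjusted p = 0.517 by limma). Against vehicle the log2 fold change of Prlr was -0.98 in the IGF1 tumors (interval -1.88 to -0.08, adjusted p = 0.516), -0.78 in the insulin tumors (-1.68 to 0.13), 0.81 in the glargine tumors (-0.09 to 1.71) and 0.06 in the X10 tumors (-0.84 to 0.96). Over all groups, the adjusted p-value of Prlr by limma was 0.160 (unadjusted p = 0.00155), and 30.1% of its variance lay between groups, a share above that of 98.6% of the tested genes.

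Cell type markers were set beside these differences in Prlr. In glargine against insulin tumors, all 7 tested adipocyte markers were above 0 (median log2 fold change 1.09, 5 with an unadjusted p-value under 0.05), as were 8 of 10 epithelial markers (median 1.11, 2 of them). In IGF1 against glargine tumors, all 7 adipocyte markers (median -1.41, 6 of them) and all 10 epithelial markers (median -1.69, 5 of them) were below 0. In glargine against vehicle tumors, all 7 adipocyte markers were above 0 (median 1.00) and 9 of 10 epithelial markers below 0 (median -0.40). In IGF1 against vehicle tumors, all 10 epithelial markers were below 0 (median -2.22, 8 of them with an unadjusted p-value under 0.05). In insulin against vehicle tumors, where Prlr was -0.78, all 10 epithelial markers were below 0 as well (median -1.50, 5 of them). In IGF1 against X10 tumors, where Prlr was -1.04, all 10 epithelial markers (median -1.64, 6 of them) and all 7 adipocyte markers (median -0.59, 0 of them) were below 0. Of the 6 tested basal markers, 4 were above 0 in glargine against insulin (median 0.20, 0 of them). All 6 were below 0 in IGF1 against glargine (median -0.46, 0 of them) and 5 in IGF1 against X10 (median -1.43, 2 of them). Against vehicle, 4 were below 0 in IGF1 (median -0.90, 2 of them) and in insulin tumors (median -0.71, 1 of them). In glargine against vehicle it was 3 (median -0.18, 1 of them). None of these markers passed the adjusted threshold in these comparisons by limma. Of all tested genes, 3.96% had an unadjusted p-value under 0.05 in glargine against insulin and 6.98% in IGF1 against glargine. The share was 8.84% in IGF1 and 11.1% in insulin against vehicle, and 11.7% in IGF1 against X10.

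With the epithelial, adipocyte and muscle marker scores in the model, the log2 fold change of Prlr was 0.84 in glargine against insulin tumors (1.59 without the scores) and -0.73 in IGF1 against glargine tumors (-1.79 without). Against vehicle it was 0.02 in the IGF1 tumors (-0.98 without), -0.09 in the insulin tumors (-0.78 without) and 0.75 in the glargine tumors (0.81 without). None passed the adjusted threshold with or without the scores.

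Greb1 was 1.06 higher in X10 than in insulin tumors on the log2 scale (95% interval 0.08 to 2.04, p = 0.0344, adjusted p = 0.382 by limma). Against vehicle it was 0.80 in the X10 tumors (interval -0.18 to 1.78), 0.38 in the glargine tumors (-0.60 to 1.36), 0.36 in the IGF1 tumors (-0.62 to 1.34) and -0.26 in the insulin tumors (-1.24 to 0.72). Without X10_95, the X10 tumor with the most Greb1, the difference from insulin was 0.69 (p = 0.132, adjusted p = 0.574 by limma) and that from vehicle 0.42. Without vehicle_194 the differences from vehicle were 1.09 in X10, 0.68 in glargine, 0.65 in IGF1 and 0.032 in insulin tumors. The intervals over all tumors reached below -1 in the insulin tumors and above 1 in the other groups.

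The intervals were narrower for the other receptors. For Nr3c1 the log2 fold changes against vehicle were between 0.15 in the IGF1 tumors and 0.29 in the insulin tumors, and no interval reached beyond -0.22 or 0.65. Without vehicle_174, the vehicle tumor with the least Nr3c1, they were 0.17 in insulin, 0.16 in X10, 0.098 in glargine and 0.034 in IGF1 tumors. With the index of long against short transcripts, a measure of each tumor defined further on, in the model, that of the insulin tumors was 0.051. For Esr1 they were between -0.15 in the X10 and 0.18 in the insulin tumors, with no interval beyond -0.74 or 0.77. Leaving out 1 tumor at a time, Esr1 ran from 0.061 (without insulin_15) to 0.32 (without insulin_13) in the insulin tumors and from -0.26 (without vehicle_174) to -0.062 (without vehicle_189) in the X10 tumors. For Ghr they were between 0.04 in the insulin tumors and 0.60 in the glargine tumors, with no interval beyond -0.59 or 1.23. Without vehicle_174, those of Ghr were -0.23 in insulin, 0.12 in X10, 0.14 in IGF1 and 0.33 in glargine tumors. Without vehicle_197, the tumor with the most Ghr, they were 0.27, 0.62, 0.64 and 0.83 in the same order, the last with an adjusted p-value of 0.576 by limma. A p-value that misses the threshold does not show that the groups were alike, and these bounds give the sizes that remain possible.

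**Figure D2:**
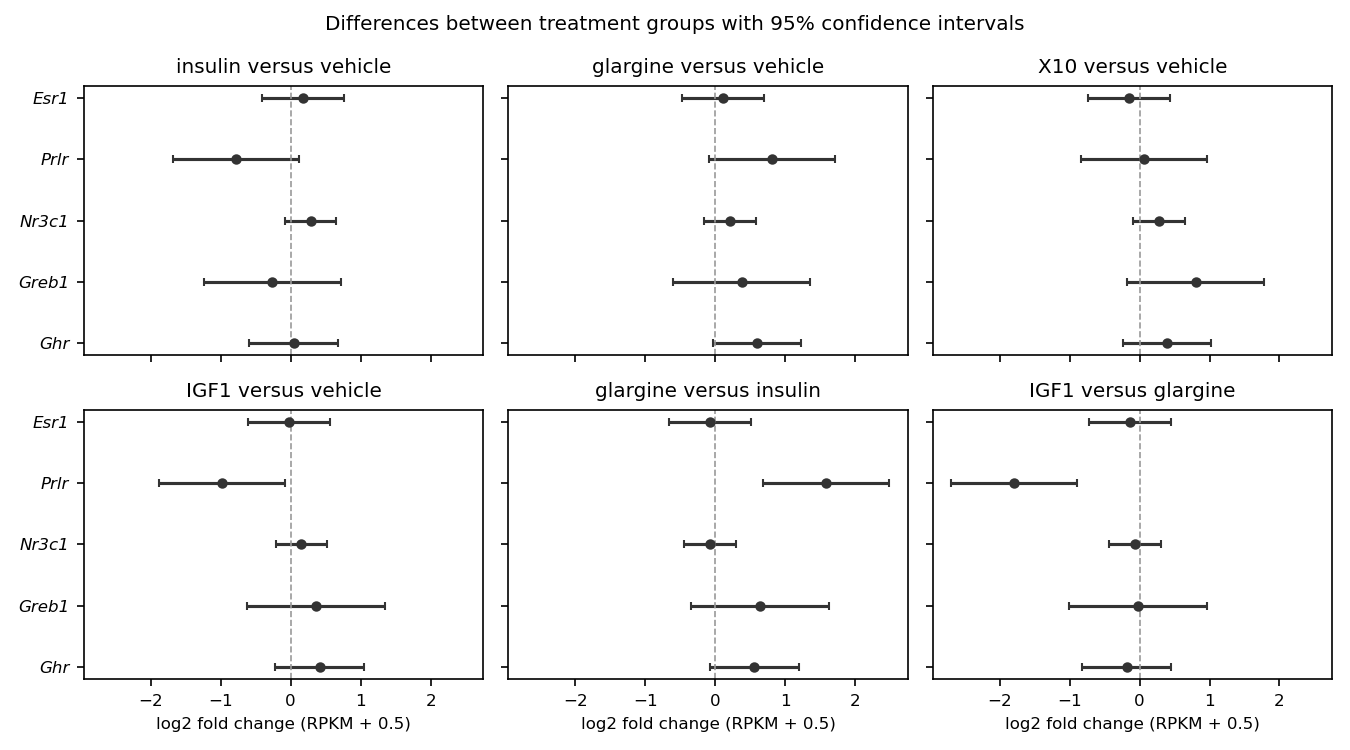
Log2 fold changes of the 5 tested genes on the log2(RPKM + 0.5) scale (points) with their 95% confidence intervals from limma (bars) in 6 comparisons. The Prlr intervals lie clear of 0 in glargine against insulin, IGF1 against glargine and IGF1 against vehicle, and none of these passed the adjusted threshold.

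Pgr did not pass the filter and was compared on log2(RPKM + 0.01) with permutation tests (100000 resamples, two-sided, 10 pairs of groups). The largest differences were those of the glargine tumors (1.17 above vehicle, p = 0.0467) and the X10 tumors (1.14 above vehicle, p = 0.0360), and both had an adjusted p-value of 0.233 over the 10 pairs (permutation test). The mean ± SD in vehicle was 0.0601 ± 0.0537 RPKM (n = 10), in glargine 0.184 ± 0.234 and in X10 0.148 ± 0.133. Without glargine_64 the glargine mean was 0.119 ± 0.118 RPKM (n = 9) and the difference from vehicle 0.87 (p = 0.0911, permutation test). Without X10_116 the X10 mean was 0.111 ± 0.0659 RPKM (n = 9) and the difference 0.91 (p = 0.0738, permutation test). Of the 7 tested adipocyte markers, 7 were above 0 in glargine against vehicle (median log2 fold change 1.00). In X10 against vehicle it was 5 (median 0.06). Their part in these differences of Pgr was not tested.

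None of the tested genes of 4 lists of receptor genes and their partners passed the test either. Of 20 genes known as targets or partners of the estrogen and progesterone receptors, 16 were tested and 0 passed in any of the 12 comparisons. Areg, an estrogen-induced growth factor of the EGF family, was well expressed, with 0.259 to 177 RPKM and a median of 28.5. Tnfsf11 (RANKL, a progesterone target) had a median of 4.05 RPKM and Wnt4 one of 0.822. Foxa1, a factor that opens chromatin for the estrogen receptor, did not pass the filter, with a median of 0.116 RPKM, nor did Tff1 (0.251), a classical estrogen target. In the list, Prom1 and Ncoa1 had the smallest p-values over groups, with adjusted p-values of 0.447 and 0.539 by limma.

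Of 15 genes of prolactin and growth hormone receptor signalling, 12 were tested and 0 passed in any comparison, although 5 had an unadjusted p-value under 0.05 in X10 against glargine (11.6% of all tested genes did). In glargine against vehicle (6.23%), glargine against insulin (3.96%) and IGF1 against glargine (6.98%) it was 4 each. In the other 3 lists of receptor genes and their partners at most 1 gene did so in each of these comparisons. In X10 against glargine, all 7 tested adipocyte markers were below 0 (median -0.85), and 6 of 10 epithelial markers were above 0 (median 0.10). The milk protein gene Csn2 (beta-casein) had the smallest p-value, with an adjusted p-value of 0.216 over the groups by limma. Its median was 23.4 RPKM in the glargine tumors and between 0.116 and 4.03 in the other groups, and its log2 fold change was 3.53 in glargine against insulin (adjusted p = 0.990) and 3.03 in glargine against vehicle (adjusted p = 0.773 by limma). Elf5, a factor of the secretory cell lineage, had a median of 10.7 RPKM in the glargine tumors and of 0.772 to 1.81 in the others (adjusted p = 0.314 over the groups by limma). Jak2, Stat5a and Stat5b had medians of 16.8, 6.20 and 8.88 RPKM. Socs2 and Cish, which are induced by Stat5 and hold the receptors in check, had their lowest group medians in the glargine tumors, Socs2 with 26.9 RPKM against 28.1 to 40.1 in the other groups and Cish with 4.17 against 5.32 to 7.73, and neither passed the test (adjusted p = 0.516 and 0.576 over the groups by limma). In glargine against vehicle 6 of the 12 tested genes of this list were above 0 and 6 below. The hormone genes Prl and Gh did not pass the filter.

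Of 15 chaperones, enzymes and targets of the glucocorticoid receptor, 13 were tested and 0 passed. Fkbp5, a chaperone that the receptor itself induces, had a mean of 23.2 ± 6.78 RPKM (SD, n = 10) in the vehicle tumors and of 29.8 ± 3.10 in the insulin tumors, a difference of 0.40 on the log2 scale (adjusted p = 0.304 by limma). Its relative Fkbp4 was 96.0 ± 31.0 in the vehicle and 67.2 ± 18.8 in the insulin tumors, a difference of -0.49 on the log2 scale (adjusted p = 0.342 by limma). Of 17 other steroid and nuclear receptor genes, 14 were tested and 0 passed. Among them, Rarg had a median of 219 RPKM, Thra of 87.1 and Vdr, the vitamin D receptor, of 55.4. The other estrogen receptor, Esr2, did not pass the filter, with a median of 0.0740 RPKM. In this list, Esrra and Pgrmc1 had the smallest p-values over groups (adjusted p = 0.556 and 0.562 by limma).

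The second question was which of the 6 genes went together across tumors. Of the 15 pairs, 3 passed the threshold, with p-values from permutation tests (100000 resamples) adjusted over the pairs. Esr1 and Nr3c1 rose together with a Pearson r of 0.594 over 50 tumors (p = 1e-05, the smallest the permutations can give, adjusted p = 0.00015, Spearman rho 0.550, adjusted p = 0.00135). Within groups r was 0.829 in vehicle, 0.829 in insulin, 0.858 in glargine, 0.413 in X10 and 0.497 in IGF1 tumors. Without IGF1_158 and IGF1_160, the tumors farthest from the median of Esr1, it was 0.577.

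Nr3c1 and Ghr had an r of 0.593 (adjusted p = 0.000225, Spearman rho 0.50, adjusted p = 0.00202). It was 0.791 in vehicle, 0.616 in glargine, 0.688 in X10 and 0.557 in IGF1 tumors and 0.00420 in the insulin tumors. It was 0.461 without vehicle_174 and IGF1_160. Pgr and Prlr had an r of 0.446 (adjusted p = 0.00385, rho 0.416, adjusted p = 0.0140), and 0.318 without glargine_64 and X10_116, with an adjusted p-value of 0.104 (permutation test), so that it no longer passed. Within groups it was 0.851 in IGF1, 0.640 in X10, 0.508 in insulin, 0.260 in glargine and 0.0978 in vehicle tumors. IGF1_145 was the highest IGF1 tumor for both genes, and X10_116 the highest X10 tumor for both.

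Esr1 did not pass with either of its target genes. With Greb1 the r was -0.317 (adjusted p = 0.0809, rho -0.287, adjusted p = 0.133), and it was below 0 in each of the 5 groups, from -0.712 in insulin to -0.121 in vehicle tumors. With Pgr the r was 0.204 (adjusted p = 0.261, rho 0.142, adjusted p = 0.442). Prlr showed little relation with Esr1 (r = 0.0478), Nr3c1 (0.00311), Greb1 (0.0105) or Ghr (0.0717), and none of these passed. Without vehicle_174, 6 pairs passed in place of 3, the added ones being Esr1 with Greb1 (r = -0.373, adjusted p = 0.0267 by permutation test), Nr3c1 with Greb1 (-0.375, adjusted p = 0.0267) and Pgr with Ghr (0.332, adjusted p = 0.0497). Pgr with Ghr also passed without vehicle_197 (0.397, adjusted p = 0.0287).

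**Figure D3:**
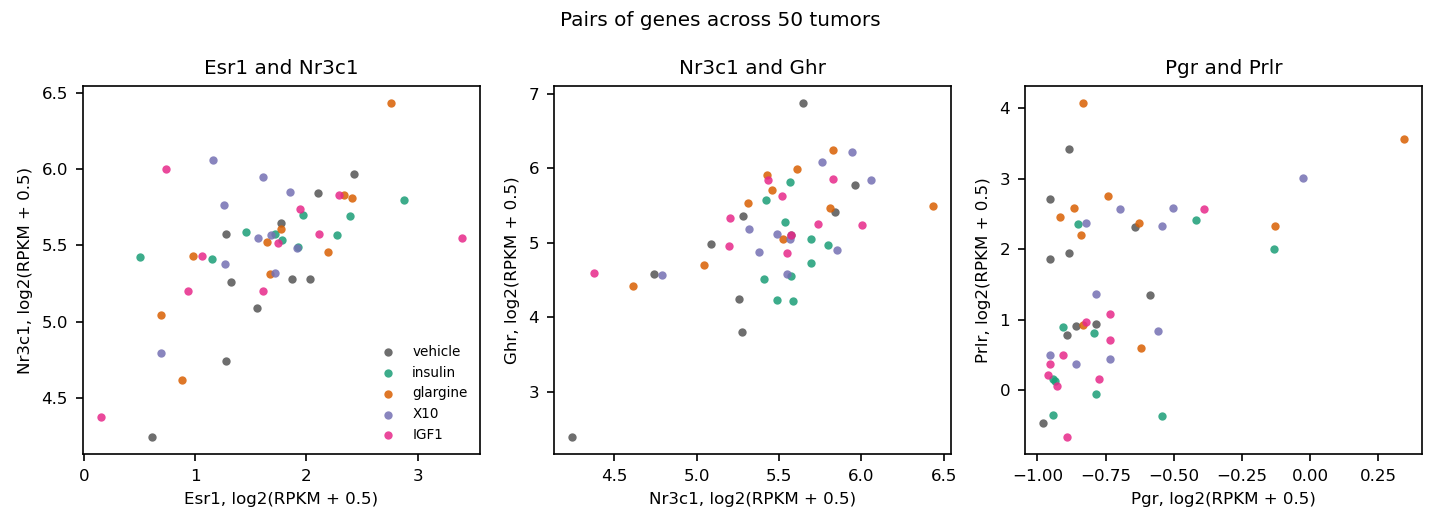
Log2(RPKM + 0.5) of 3 pairs of genes in 50 tumors, 1 point per tumor, coloured by treatment group. Esr1 and Nr3c1 (r = 0.594) and Nr3c1 and Ghr (r = 0.593) run together with 3 tumors at the lower left, and Pgr and Prlr have an r of 0.446.

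Since the tumors hold several cell types, each gene was compared with the mean z-score of 7 lists of cell type markers, and 6 of 42 relations passed the threshold (permutation tests, adjusted over the 42). Prlr went with the epithelial markers (r = 0.651, adjusted p = 0.00028, rho 0.705) and with the basal markers (r = 0.546, adjusted p = 0.00028, rho 0.664). It also went with the adipocyte markers (r = 0.443, adjusted p = 0.0102, rho 0.507), though with treatment means removed this r was 0.308 (adjusted p = 0.177 by permutation test). Pgr went with the adipocyte markers (r = 0.588, adjusted p = 0.00028, rho 0.505). Its r with the epithelial markers was 0.00550, and with the basal markers 0.292 (adjusted p = 0.180) with a rho of 0.430 (adjusted p = 0.0148, permutation tests). Esr1 and Nr3c1 went with the leukocyte markers, with an r of 0.468 (adjusted p = 0.00672, rho 0.426) and 0.425 (adjusted p = 0.0139, rho 0.374), and neither passed without its 2 farthest tumors (r = 0.367 and 0.315, adjusted p = 0.0879 and 0.171 by permutation test). In the vehicle tumors r was -0.290 for Esr1 and -0.112 for Nr3c1. It was 0.539 to 0.714 and 0.297 to 0.767 in the other groups. With treatment means removed, Esr1 still passed (r = 0.472, adjusted p = 0.0208) and Nr3c1 did not (0.386, adjusted p = 0.0518, permutation tests).

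Greb1 passed with none of the lists, its strongest relation being with endothelium (r = -0.271, adjusted p = 0.202 by permutation test). Ghr had an r of -0.377 with the epithelial markers (adjusted p = 0.05004, just over the threshold, rho -0.0688), which was -0.0966 without vehicle_174 and vehicle_197. All 10 epithelial markers, 6 of 8 basal markers and 7 of 8 adipocyte markers had passed the filter. The part of these cell types in the levels of the 6 genes was not tested.

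Over all 50 tumors, Elf5 was the gene whose pattern was most like that of Prlr among all tested genes (r = 0.876, and 0.855 with treatment means removed). It was followed by BC006965 (0.818), Lcn2 (0.803), Atp6v1b1 (0.796) and Ehf (0.795), of which Lcn2 codes for lipocalin 2 and Ehf for an epithelial relative of Elf5.

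The genes most like Pgr were Lep (leptin, r = 0.645), Tmem56 (0.631), Tmem45b (0.621), Prkg1 (0.610) and Plin4 (0.606). Lep and Plin4 are fat cell genes and belong to the adipocyte marker list. For Greb1 the likeness was lower, with Espn (0.586), Sept9 (0.553), Sema3b (0.535), Abcb9 (0.506) and Pih1d2 (0.506). These values are given without p-values, since the genes were the highest of all tested.

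For Esr1 the most alike were Atmin (r = 0.735), Ncoa3 (0.729), Itpr1 (0.728), Fmr1 (0.721) and Wrn (0.718), of which Ncoa3 codes for a coactivator of steroid receptors. For Ghr they were Cpeb4 (0.734), Tmem65 (0.716), Spred1 (0.712), Abcc5 (0.707) and Tnfrsf11a (0.704), the last of which codes for RANK, the receptor of Tnfsf11. For Nr3c1 they were Ythdc2 (0.856), Trappc8 (0.855), Wdr7 (0.848), Dmxl1 (0.841) and Mib1 (0.840). All 5 genes most like Nr3c1 lie on its own chromosome 18, as did 21 of its 50 most alike, where 2.37% of the tested genes lie there. For Esr1, 11 of the 50 lay on its chromosome 10 (4.33% of tested genes), and for Ghr 8 of 50 on its chromosome 15 (3.69%). For Pgr, Prlr and Greb1 it was 3, 1 and 2 of 50 (5.22%, 3.69% and 3.56%).

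The longest transcript of the 50 genes most like Esr1, Nr3c1 and Ghr had a median of 5607, 6470.5 and 5516 bases, against 2882 for the tested genes. For this reason an index of long against short transcripts was computed for each tumor, the mean log2 difference from the median tumor of the 10% of protein-coding genes with the longest transcripts minus that of the 10% with the shortest (1350 and 1355 genes, at least 6748 and at most 1375 bases). The index ran from -1.18 to 0.43 and was lowest in IGF1_160, vehicle_174 and glargine_47. The group medians were -0.03 in vehicle, 0.10 in insulin, 0.10 in glargine, 0.05 in X10 and -0.19 in IGF1 tumors.

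Nr3c1 followed this index with an r of 0.741 (adjusted p = 6e-05, rho 0.534), Esr1 with 0.538 (adjusted p = 0.00024, rho 0.458) and Ghr with 0.498 (adjusted p = 0.000643, rho 0.426), by permutation tests adjusted over 18 relations. Prlr (-0.000200), Greb1 (-0.0508) and Pgr (0.250) did not pass. The index was built because the genes most like Nr3c1, Esr1 and Ghr in these same tumors had long transcripts. A relation of these 3 genes with it was therefore likely in advance, and its p-values are descriptive only. Without the 3 tumors of lowest index, the r was 0.526 for Nr3c1 (adjusted p = 0.000780), 0.365 for Esr1 (adjusted p = 0.0301) and 0.296 for Ghr (adjusted p = 0.0942, permutation tests), so that Ghr no longer passed. With the index removed, r was 0.346 for Esr1 and Nr3c1 (adjusted p = 0.0596 over the 15 pairs), 0.384 for Nr3c1 and Ghr (adjusted p = 0.0424) and 0.461 for Pgr and Prlr (adjusted p = 0.0109, all by permutation tests). Without those 3 tumors, the pairs had an r of 0.454 (adjusted p = 0.00982), 0.429 (adjusted p = 0.0144) and 0.466 (adjusted p = 0.00900, permutation tests). RNA integrity was not analysed here, and its part in these relations was not tested.

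**Figure D4:**
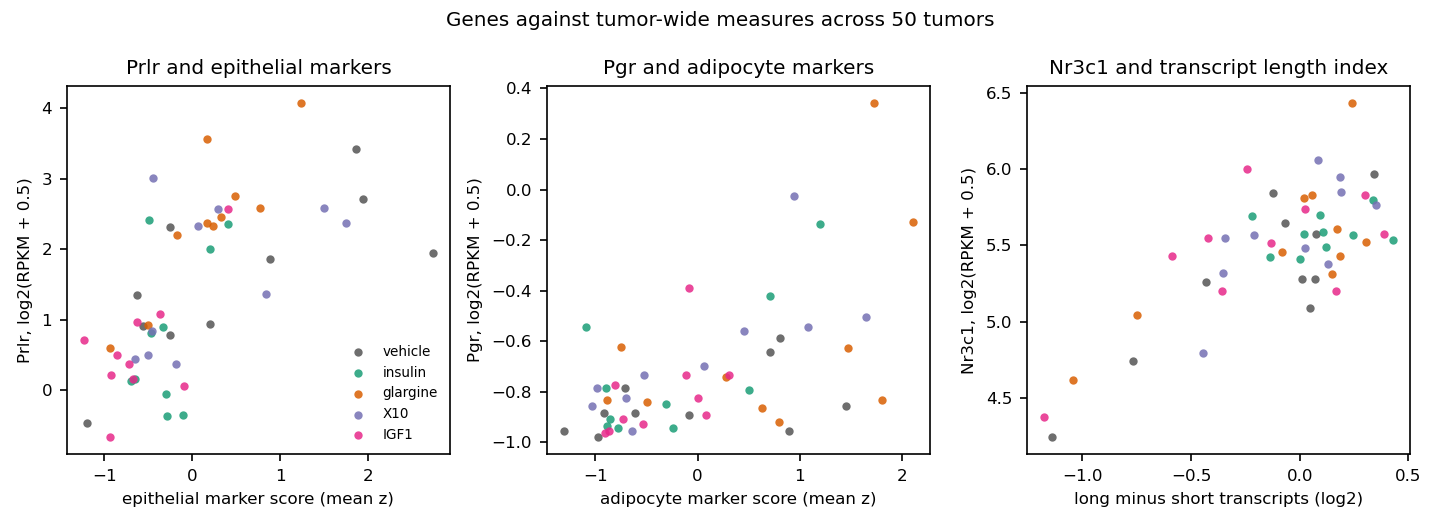
Prlr against the epithelial marker score, Pgr against the adipocyte marker score and Nr3c1 against the index of long minus short transcripts, as log2(RPKM + 0.5) on the vertical axes, with 1 point per tumor coloured by treatment group. Prlr is higher in tumors with a higher epithelial score (r = 0.651), and the 3 tumors of lowest index have the lowest Nr3c1.

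Because of the genes shared on chromosomes, each member was compared with its protein-coding neighbours within 5 Mb and with its whole chromosome, as the median log2 difference from the median tumor. Esr1 (r = 0.609, adjusted p = 6e-05, rho 0.657), Ghr (0.588, adjusted p = 0.000144, rho 0.469) and Nr3c1 (0.544, adjusted p = 9e-05, rho 0.591) went with their neighbours by permutation tests. With the whole chromosome, Nr3c1 (0.757, adjusted p = 6e-05, rho 0.739) and Esr1 (0.464, adjusted p = 0.00173, rho 0.455) passed, and Ghr (0.297, adjusted p = 0.0647) did not. Prlr and Greb1 passed with neither. These measures were chosen after the shared chromosomes had been seen in the same tumors. Relations of Nr3c1, Esr1 and Ghr with them were therefore likely in advance, and their p-values are descriptive only. Without the 3 tumors of lowest index, the r with neighbours was 0.522 for Esr1 (adjusted p = 0.000780), 0.465 for Nr3c1 (adjusted p = 0.00427) and 0.370 for Ghr (adjusted p = 0.0301, permutation tests). With the chromosome it was 0.634 for Nr3c1 (adjusted p = 0.00018) and 0.402 for Esr1 (adjusted p = 0.0178, permutation tests). DNA copy number was not analysed here, and its part was not tested.

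In vehicle_174, where Ghr was lowest, the 21 neighbours of Ghr had a median of -1.01, and 11 of them were more than 1 below the median tumor. In X10_95, where Greb1 was highest and 4.24 above the median tumor, the 22 neighbours of Greb1 had a median of 0.30 and none was more than 1 above.

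The neighbours of Pgr were high together in several tumors. Their median was 2.56 above the median tumor in X10_116, 2.17 in vehicle_186 and in X10_100, and 1.04 in X10_118 and in insulin_13. In X10_116, the tumor next to the highest in Pgr, 21 of the 32 neighbours were more than 1 above the median tumor. Among them were the matrix-degrading enzymes Mmp13 (1771 RPKM against a median of 173.8 in the other tumors) and Mmp10 (472 against 11.2), and Yap1 (814 against 70.4), Birc3 (635 against 71.7), Birc2 (84.9 against 9.70) and Arhgap42, the next gene to Pgr (166 against 23.9). Yap1 was higher in 4 other tumors, vehicle_161 (8940 RPKM), IGF1_145 (2884), X10_100 (1182) and vehicle_186 (1048), and so was Birc2 (597, 302, 104.3 and 118.3 RPKM). Pgr in vehicle_161 was 0.0160 RPKM and in IGF1_145 it was 0.264. Yap1 codes for a growth-promoting coactivator of the Hippo pathway, and Birc2 and Birc3 code for inhibitors of apoptosis. The genes more than 1 above began between 6928503 and 13827716 on chromosome 9, and 8 of them had their highest value of all tumors there, among them Jrkl, Ccdc82, Mtmr2 and Fam76b.

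High Arhgap42 did not always go with high Pgr. More Arhgap42 than in X10_116 was found in X10_100 with 551 RPKM, X10_105 with 327 and vehicle_186 with 215. Their Pgr values were 0.0810, 0.205 and 0.0390 RPKM, from 8, 31 and 5 reads, against 0.482 RPKM from 57 reads in X10_116. The tumor with the most Pgr, glargine_64 (0.769 RPKM, 110 reads), had 36.2 RPKM of Arhgap42 and a neighbour median of 0.21. Over the 50 tumors Pgr and its neighbours had an r of 0.313 (adjusted p = 0.0608, rho 0.506, adjusted p = 0.000720, permutation tests), so that the rank correlation passed and the linear one did not, and r was 0.156 without glargine_64 and X10_116.

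**Figure D5:**
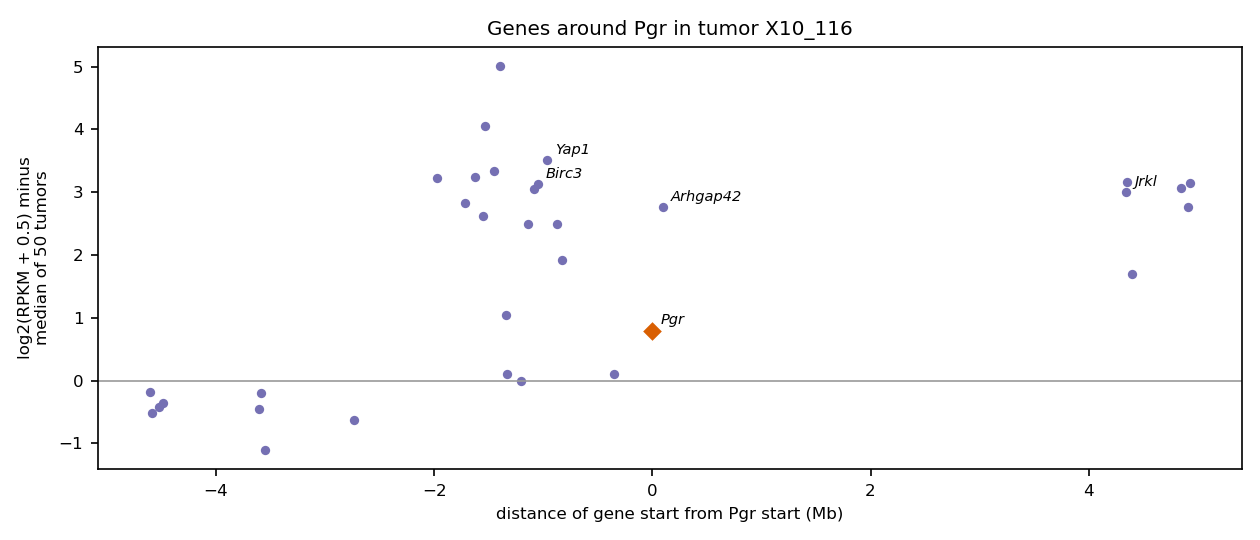
Protein-coding genes within 5 Mb of Pgr in tumor X10_116, as log2(RPKM + 0.5) minus the median of the 50 tumors, against the distance of their starts from that of Pgr. Genes between about 2 Mb before and 5 Mb after Pgr are high, apart from Mmp27, Mmp7 and Trpc6. Pgr (diamond) is at 0.80 on this scale, which understates the change of a gene of its level, and without the added 0.5 its 0.482 RPKM was 7.42 times the median of the other tumors, against 6.92 times for Arhgap42.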

How the data were processed

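Poly-A RNA of 50 MG tumors was sequenced on the Ion Proton. Per the study's methods and the submitters' processing notes, the authors aligned reads to GRCm38 with TopHat2 2.0.10 and Bowtie2, counted them per gene with HTSeq 0.6.1 and tested them with DESeq2 1.2.10. The deposited values are RPKM with 3 decimals, 1 column per tumor. Low RPKM values are whole multiples of what 1 read is worth, and these steps gave each library size (26.6 to 51.9 M reads) and the gene lengths. At least 98.8% of the low values of a library came out whole.

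Groups were taken from the sample labels, 10 tumors each. Genes with a mean of at least 0.5 RPKM (16733 of 37701) were tested on log2(RPKM + 0.5) by limma 3.58.1 (R 4.3.3) with all 5 groups in the model and an intensity trend. The Benjamini-Hochberg adjustment covered all tested genes, with a threshold of 0.05. Pgr did not pass the filter. Correlations across tumors used Pearson's r and Spearman's rho with two-sided permutation tests (100000 resamples, scipy 1.17.1), in which 1e-05 is the smallest p-value. The limma steps were tested on simulated data. Positions came from GENCODE M21 and promoter sequences from RefSeq, both on GRCm38. Promoters on chromosome 18 were not used, and 10 windows of the other 5 genes matched.

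The 6 genes and all gene lists were chosen with earlier results of these data known. All 6 are described. From each pathway list the 2 genes with the smallest p-values over groups were named, and for each of the 6 the 5 genes of highest r. Other genes given with their levels only, and the neighbours of Pgr, were chosen after their values were seen. Alternatives included other pseudocounts, filters, scalings and covariates, voom on recovered reads and leaving out each tumor.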

Additional observations from a re-analysis of the deposited data

Results flagged for a closer look

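On the log2(RPKM + 0.5) scale, in 3 of the 30 sets of 10 tumors (6 genes in 5 groups), the highest or lowest tumor lay so far from the next that its gap passed Dixon's 95% critical value of 0.466 of the range. Chance flags about 1 in 20 groups. On the RPKM scale itself, an alternative chosen after seeing the data, 8 sets passed, so which tumors stand apart depends on the scale, and each gap below is on the log2(RPKM + 0.5) scale unless another is named. Pgr in X10_116 was 0.482 RPKM, where the next X10 tumor had 0.205, a gap of 0.515 of the range. Pgr in IGF1_145 was 0.264 RPKM, where the next IGF1 tumor had 0.101, a gap of 0.603 of the range, and the same tumor had the highest Prlr of its group with 5.43 RPKM. Nr3c1 in IGF1_160 was 20.3 RPKM, where the next lowest IGF1 tumor had 36.2, a gap of 0.505 of the range, and the index of long against short transcripts in this tumor was -1.18. On the RPKM scale this gap was 0.368 and did not pass, while those of Pgr were 0.594 in X10_116 and 0.649 in IGF1_145. The others that passed on the RPKM scale were the highest tumors for Prlr in IGF1_145 (gap 0.721), Greb1 in X10_95 (0.709), Esr1 in IGF1_158 (0.597), Ghr in vehicle_197 (0.561), Pgr in glargine_64 (0.480) and Nr3c1 in glargine_69 (0.477).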

How the results depend on the processing

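The count of the tested genes past the threshold was 0 in all 12 comparisons under each alternative and without each of the 50 tumors. The alternative filter of a mean of at least 5 RPKM left Esr1, Prlr and Greb1 untested (means 2.96, 3.17 and 3.30), so its count does not cover them. The smallest adjusted p-value by limma was that of Prlr over the 5 groups, 0.102 with the index of long against short transcripts in the model and 0.0909 without X10_107. Of 429 alternative values of 32 log2 fold changes, 17 changed sign, all of them values that had not passed the adjusted threshold. With the epithelial, adipocyte and muscle marker scores in the model, Esr1 in glargine against vehicle was -0.10, Prlr in IGF1 tumors 0.024 against vehicle and 0.11 against insulin, Nr3c1 in IGF1 against vehicle -0.0014 and Ghr in insulin against vehicle -0.21. With the index in the model, Esr1 was -0.10 in insulin and -0.0068 in glargine and Ghr -0.28 in insulin, against vehicle. Without the 3 tumors of lowest index, Esr1 in IGF1 tumors was 0.022 and Ghr in insulin -0.23, against vehicle. Esr1 in IGF1 against vehicle was 0.0048 after quantile normalization, and Prlr in X10 against vehicle -0.20 with library size in the model. Leaving out 1 tumor at a time, the ranges against vehicle were -0.0049 to 0.23 for Esr1 in glargine tumors, -0.23 to 0.13 for Esr1 in IGF1 tumors, -0.17 to 0.27 for Prlr in X10 tumors, -0.40 to 0.032 for Greb1 in insulin tumors and -0.23 to 0.27 for Ghr in insulin tumors. The cause was not tested. The number of pairs of genes that passed was 3, and 6 without vehicle_174. Of 126 alternative values of 13 correlations, 7 lost and 7 gained the threshold. The index, the neighbour and chromosome measures and the alternatives with the index or without named tumors were chosen after seeing the data.

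Counts over all genes depended on the setting: X10 against glargine gave 298, and 142 to 505 under other settings, 76 without X10_111 and 577 without X10_107. X10 against vehicle gave 11, and 1 to 24, with 1 without vehicle_174. X10 against insulin gave 17, and 6 to 215, with 95 without X10_107. X10 and IGF1 against the rest gave 26, and 10 to 173, with 131 without IGF1_135, and any difference 17, and 0 to 79, with 110 without IGF1_124. No paired analysis was possible because each mouse received only 1 treatment, and no number in the labels is shared between groups. Depth limits Pgr, with 1 to 110 reads per tumor.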
